A study of Homo sapiens with 8 samples.

Results

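Immediate early genes are the transcripts that a cell makes within minutes of a growth factor, serum or stress signal, without needing new protein. A list of 42 such genes and of their growth factor response partners was followed in hepatoma cells after knockdown of KLHL23, a Kelch-like protein of the family that brings substrates to cullin 3 ubiquitin ligases. The list was drawn up by gene symbol, and each gene was read from the probe set (the group of probes that measures a transcript) that is paired with that symbol alone and had the highest mean over the arrays. That gave values for 39 of the 42 genes, among 19775 genes in all. EGR2, AREG and BTG2 had no probe set of their own in the annotation used here and were not analysed.

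Transcripts were measured on 8 Affymetrix expression arrays of Hep-3B and Huh7, both established human liver cancer cell lines, in 4 groups of 2. The series title ties KLHL23 to epithelial-mesenchymal transition, and the arrays ask which transcripts respond to its loss. The groups were Hep-3B shKLHL23 with its control Hep-3B shLuc, and Huh7 shKLHL23 with its control Huh7 shLuc. shKLHL23 is a lentiviral short hairpin RNA against KLHL23, and shLuc is a hairpin against luciferase, which human cells do not have. All groups shared the transduction (multiplicity of infection 2), the puromycin selection that followed 48 hours later, and growth medium with 10% fetal bovine serum, itself a source of growth factors. The labels give a single name for the KLHL23 hairpin, so loss of KLHL23 and other effects of that hairpin cannot be told apart. The replicates carry the numbers 1 and 3, and no label says whether they were grown as separate cultures. The p-values therefore cover only the spread between these arrays, which may be technical.

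The genes fall into layers of a single response. Ligands such as EREG and TGFA bind the EGF receptor, RAS and the ERK kinases carry the signal, and factors such as SRF, the ETS proteins and CREB switch on FOS, EGR1 and their neighbours in the nucleus. Some products are transcription factors that start a later wave, and others, the dual specificity phosphatases (DUSP) and the SPRY and SPRED proteins, feed back to quench ERK. In liver cells the same genes respond to injury, regeneration and cell handling.

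The promoters of 5 genes named in the results are printed from RefSeq (build GRCh38.p14), each from 250 bases before to 50 bases after the start of the gene and read 5′ to 3′ on the gene's strand. They stand for the early transcription factors (EGR1, FOS and KLF4), a feedback phosphatase (DUSP1) and a ligand (EREG). EGR1 lies at chr5:138465229-138465528 and FOS at chr14:75278578-75278877, both on the plus strand. DUSP1 lies at chr5:172771146-172771445 and KLF4 at chr9:107489720-107490019, both on the minus strand, and EREG at chr4:74364895-74365194 on the plus strand. Capitals mark matches, on either strand, to the CArG box bound by SRF, to the cAMP response element TGACGTCA, to the AP-1 site TGACTCA or to the TATA sequence TATAAA.
EGR1: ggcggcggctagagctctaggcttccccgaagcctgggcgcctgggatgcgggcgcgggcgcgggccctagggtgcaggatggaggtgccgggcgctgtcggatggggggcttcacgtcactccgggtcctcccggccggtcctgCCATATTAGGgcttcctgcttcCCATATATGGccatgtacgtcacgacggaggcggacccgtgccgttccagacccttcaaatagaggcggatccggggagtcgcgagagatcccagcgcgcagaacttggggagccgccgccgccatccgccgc
FOS: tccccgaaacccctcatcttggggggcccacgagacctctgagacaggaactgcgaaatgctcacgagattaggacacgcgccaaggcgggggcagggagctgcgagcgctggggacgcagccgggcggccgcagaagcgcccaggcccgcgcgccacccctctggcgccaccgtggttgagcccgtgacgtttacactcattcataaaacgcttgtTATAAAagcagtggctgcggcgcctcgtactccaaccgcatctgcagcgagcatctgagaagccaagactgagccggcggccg
DUSP1: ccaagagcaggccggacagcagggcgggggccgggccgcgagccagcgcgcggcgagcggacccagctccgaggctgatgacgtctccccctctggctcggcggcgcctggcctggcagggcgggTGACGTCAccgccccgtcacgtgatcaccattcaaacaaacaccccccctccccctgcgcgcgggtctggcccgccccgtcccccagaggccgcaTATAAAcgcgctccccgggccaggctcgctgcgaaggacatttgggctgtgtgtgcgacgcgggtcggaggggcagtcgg
KLF4: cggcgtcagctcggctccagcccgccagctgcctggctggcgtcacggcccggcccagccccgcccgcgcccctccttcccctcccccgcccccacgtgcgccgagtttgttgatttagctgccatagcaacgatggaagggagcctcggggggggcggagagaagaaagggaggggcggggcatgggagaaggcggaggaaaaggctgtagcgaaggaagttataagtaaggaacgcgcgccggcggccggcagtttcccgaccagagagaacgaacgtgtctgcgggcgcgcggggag
EREG: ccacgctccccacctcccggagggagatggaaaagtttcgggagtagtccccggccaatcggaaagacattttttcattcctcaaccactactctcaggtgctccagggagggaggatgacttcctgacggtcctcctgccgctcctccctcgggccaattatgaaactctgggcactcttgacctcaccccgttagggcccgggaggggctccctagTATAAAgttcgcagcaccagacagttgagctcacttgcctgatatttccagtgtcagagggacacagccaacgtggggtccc

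EGR1 had 2 CArG boxes, whose first bases lay 105 and 83 bases upstream of the start. DUSP1 had TGACGTCA at 125 bases and TATAAA at 30 bases upstream, FOS had TATAAA at 33 and EREG at 32 bases upstream, and KLF4 held none of these letters. No marked match overlapped another. Of the listed genes 31 were in the promoter table, which held 27305 genes. A CArG box was present in 2 of the 31 (EGR1 and EGR2) and in 1.6% of all promoters. TGACGTCA was present in 4 (AREG, DUSP1, JUND and ZFP36L1; 2.25% of all), TGACTCA in 1 (FOSL2; 6.05% of all) and TATAAA in 7 (14% of all). Such a match is a run of letters and not a measured binding site. Sequence outside these windows was not searched, so a gene without a match here may hold one further away.

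KLHL23 itself was checked first, on the deposited log2 scale. In Hep-3B it had 7.21 and 6.15 in shKLHL23 arrays, against 7.81 and 7.84 in shLuc arrays, so the knockdown replicates kept 65.5% and 31.4% of the control mean and the difference of -1.14 did not pass the test (SE 0.27, limma adjusted p = 0.0833). In Huh7 it had 5.78 and 5.88 in shKLHL23 arrays, against 7.89 and 7.87 in shLuc arrays, which is 23.4% and 25% of the control mean (log2 difference -2.05, limma adjusted p = 0.00363). Markers of hepatocytes lay high in these cultures (9 of 11 measured, mean log2 value 9.15 to 13.6), and those of endothelium lay between 2.39 and 6.32. Some markers of other cell types lay high too, with a median of 10.6 for 4 bile duct cell markers and 11.7 for LYZ among the blood and macrophage markers, and the smooth muscle actin gene ACTA2 had 9.06 to 9.36 in Hep-3B. The log2 signal at the 3′ end minus that at the 5′ end of ACTB, which tracks RNA integrity, was 0.737 and 0.753 in Hep-3B shKLHL23 against 0.442 and 0.537 in Hep-3B shLuc arrays, and 0.525 and 0.546 in Huh7 shKLHL23 against 0.873 and 0.833 in Huh7 shLuc arrays. The ACTB value was thus higher after knockdown in Hep-3B and lower in Huh7. The same measure of GAPDH was 0.223 and 0.236 in Hep-3B shKLHL23 against 0.117 and 0.12 in Hep-3B shLuc arrays, and overlapped in Huh7, with 0.148 and 0.112 in shKLHL23 against 0.132 and 0.0887 in shLuc arrays. The part of RNA integrity in the results was not tested. These are bulk samples, in which fewer cells of a type and less RNA per cell cannot be told apart.

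In Huh7 a subset of the early response transcripts fell. Of the 39 genes 10 fell and 1 rose after KLHL23 knockdown, where 7.73% of all genes fell and 5.75% rose (limma, adjusted p under 0.05 over 19775 genes). KLF4, KLF10 and EREG fell the most, and DUSP5 was the gene that rose. Of the 39 genes 20 had an unadjusted p under 0.05 (27.5% of all genes), and 3 had a difference of -1 or lower (0.845% of all genes). The median difference over the 39 genes was -0.29 on the log2 scale, beside 0.00 over all genes. Both shKLHL23 arrays lay below both shLuc arrays in 26 of the 39 genes (27.2% of all genes) and above them in 2 (26.5% of all genes).

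Among the zinc finger transcription factors, 2 of 6 fell. KLF4, a factor of epithelial differentiation and growth arrest, had 7.11 and 7.12 in shKLHL23 arrays, against 8.94 and 8.92 in shLuc arrays. Replicates were nearly equal in each group and the groups lay far apart (log2 difference -1.81, SE 0.225, 3.51-fold lower, limma adjusted p = 0.00292). KLF10, also called TGFB-inducible early gene, had 8.14 and 8.44 in shKLHL23 arrays, against 10.01 and 9.96 in shLuc arrays. It fell 3.24-fold (SE 0.25 on the log2 scale, adjusted p = 0.00518). EGR1, the zinc finger factor that serum induces through SRF, had 8.30 and 8.06 in shKLHL23 arrays, against 8.97 and 9.11 in shLuc arrays. Its arrays did not overlap between the groups either, but the difference of -0.86 did not pass the test (SE 0.477, adjusted p = 0.293). The model shares each gene's spread over all 4 groups, and with Huh7 fitted alone the SE of EGR1 was 0.124 and its adjusted p 0.0167. KLF2, KLF6 and EGR3 also did not pass, with differences of -0.27, -0.39 and -0.09, and EGR3 lay below the lower quartile of all 8 arrays.

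The AP-1 family, whose FOS and JUN proteins pair to bind TGACTCA, had no member of 7 that passed in Huh7. FOS had 3.86 and 4.11 in shKLHL23 arrays, against 4.09 and 4.22 in shLuc arrays, and these overlapped. JUN came nearest, with 9.16 and 8.64 in shKLHL23 arrays, against 9.52 and 9.55 in shLuc arrays (log2 difference -0.64, adjusted p = 0.0512). JUNB differed by -0.48, FOSL1 by 0.16, and FOSB, FOSL2 and JUND by between -0.07 and 0.04.

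Of the 6 small early response proteins 4 fell in Huh7 and none rose. PHLDA1, a pleckstrin-homology-like protein that growth factors induce, had 11.16 and 10.86 in shKLHL23 arrays, against 11.86 and 11.84 in shLuc arrays. IER2, a nuclear early response protein, had 8.91 and 9.15 in shKLHL23 arrays, against 9.63 and 9.74 in shLuc arrays. RHOB, an early-induced GTPase of endosomes, had 10.42 and 10.00 in shKLHL23 arrays, against 10.80 and 10.91 in shLuc arrays. Control replicates of these 3 genes lay close together, while the knockdown replicates were further apart and always lower. The log2 differences were -0.84 for PHLDA1 (SE 0.167, limma adjusted p = 0.0145), -0.65 for IER2 (SE 0.155, adjusted p = 0.027) and -0.64 for RHOB (SE 0.149, adjusted p = 0.0245). IER5 fell less, with 7.27 and 7.14 in shKLHL23 arrays, against 7.65 and 7.59 in shLuc arrays (-0.42, SE 0.0952, adjusted p = 0.024). IER3, a regulator of cell survival, had 10.12 and 9.87 in shKLHL23 arrays, against 10.78 and 10.71 in shLuc arrays, and its difference of -0.75 did not pass (adjusted p = 0.0729). MCL1, a BCL2 family survival protein, differed by -0.07.

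The phosphatases that switch off MAP kinases split in Huh7, with 1 of 5 falling and 1 rising. DUSP5, a nuclear phosphatase of ERK, had 6.10 and 5.64 in shKLHL23 arrays, against 5.21 and 5.15 in shLuc arrays. It was thus higher in both knockdown arrays, by 0.68 on the log2 scale (SE 0.156, limma adjusted p = 0.0236). With Huh7 fitted alone DUSP5 was not called. DUSP6, the cytoplasmic phosphatase of ERK, had 8.84 and 8.54 in shKLHL23 arrays, against 9.28 and 9.29 in shLuc arrays (-0.60, SE 0.161, adjusted p = 0.0423), a call that 9 of 18 alternative settings did not keep. DUSP1, which acts on JNK, p38 and ERK, had 9.09 and 8.73 in shKLHL23 arrays, against 9.74 and 9.84 in shLuc arrays, a larger difference of -0.88 with a wider error (SE 0.264, adjusted p = 0.0605). DUSP2 and DUSP4 differed by -0.08 and -0.29. The other ERK inhibitors of the list, SPRY2, SPRY4 and SPRED1, differed by -0.24, -0.40 and -0.20 and none passed (lowest adjusted p 0.0708).

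EGF receptor ligands fell in 2 of 3 cases in Huh7. EREG (epiregulin) had 3.76 and 3.81 in shKLHL23 arrays, against 5.37 and 5.51 in shLuc arrays. Replicates differed little beside the gap between groups (-1.66, SE 0.329, limma adjusted p = 0.0147). The shKLHL23 values lay below the array medians, where RMA compresses differences, so no fold is given. TGFA, which encodes transforming growth factor alpha, had 7.36 and 7.21 in shKLHL23 arrays, against 7.81 and 7.8 in shLuc arrays (-0.52, SE 0.0932, adjusted p = 0.0103). HBEGF differed by -0.31 and did not pass. Among the orphan nuclear receptors NR4A1 fell, with 6.28 and 6.29 in shKLHL23 arrays, against 6.79 and 6.73 in shLuc arrays (-0.47, SE 0.0845, adjusted p = 0.00997), and NR4A2 and NR4A3 differed by -0.09 and -0.28. The ETS factors ETV4 and ETV5 (0.01 and -0.16), the mRNA decay factors ZFP36 and ZFP36L1 (0.34 and 0.09) and the secreted matricellular proteins CCN1 and CCN2 (-0.45 and -0.22) did not pass.

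**Figure D1:**
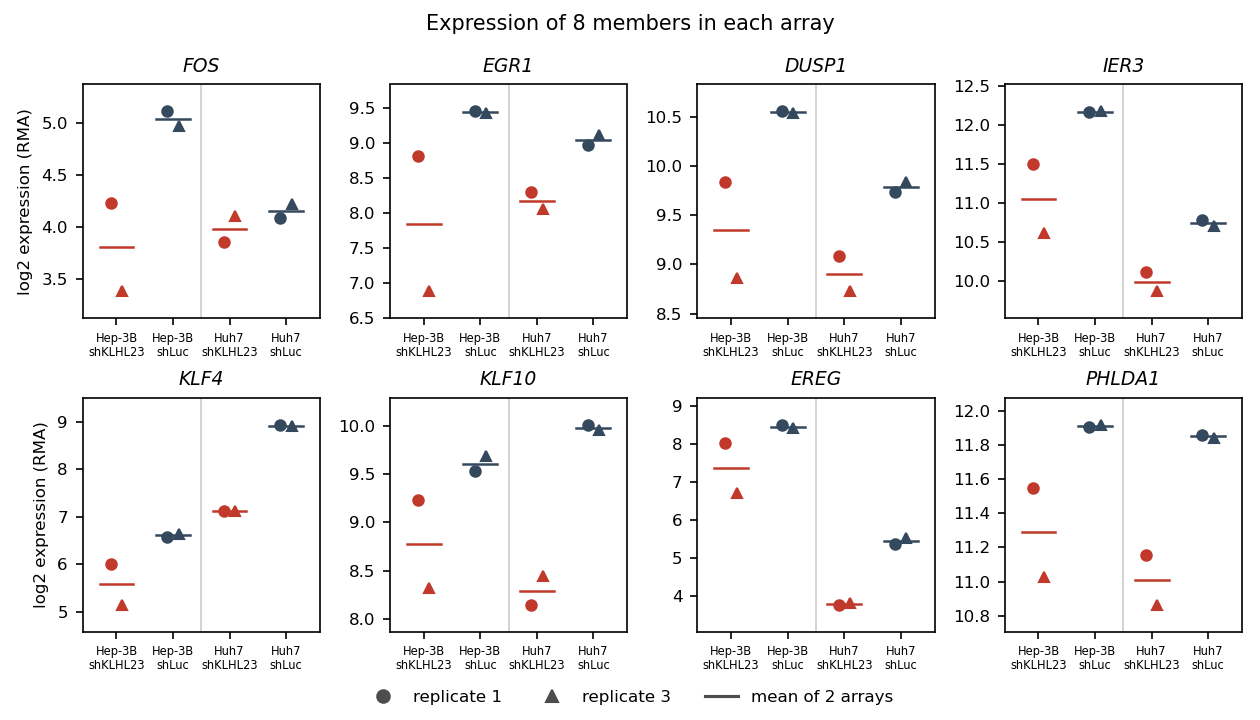
Log2 expression (RMA, the normalization of the deposited values) of FOS, EGR1, DUSP1, IER3, KLF4, KLF10, EREG and PHLDA1 on each of the 8 arrays, with replicate 1 as a circle, replicate 3 as a triangle and the group mean as a line; each panel has its own vertical scale. Knockdown arrays lie below their control arrays in every panel and line except FOS in Huh7, and the Hep-3B knockdown replicates stand far apart (EGR1 8.81 and 6.88).

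Other probe sets of the same genes bore on these calls. With all probe sets tested, KLF4 fell on 2 of 2 and PHLDA1 on 5 of 6. JUN, not called on its brightest probe set, fell on 1 of 4 (-0.67, adjusted p = 0.0462), and ZFP36L1 rose on 1 of 4 (0.48, adjusted p = 0.0344). DUSP6 passed on none of 3, its brightest at an adjusted p of 0.0541. EREG fell on 1 of 2, and its other probe set differed by 0.20 (adjusted p = 0.573). NR4A1 fell on 1 of 3 (the others differed by 0.06 and -0.23), TGFA on 1 of 3 and RHOB on 1 of 5, so for these the fall rests on the brightest probe set. KLF10, IER2, IER5 and DUSP5 had 1 probe set each. The number of genes called was 2, namely KLF4 and KLF10, when either Huh7 shLuc array was left out, 7 without Huh7 shKLHL23 replicate 3 and 6 when each gene's probe sets were averaged. Fewer genes in all were also called when either Huh7 shLuc array was left out, and more without Huh7 shKLHL23 replicate 3. A group left with 1 array is assumed to vary like the others.

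In Hep-3B most of the same transcripts lay lower, but none of the 39 passed the test (limma, adjusted p under 0.05), where 0.157% of all genes fell and 0.536% rose. At an unadjusted p under 0.05 there were 26 of 39, beside 17.7% of all genes. The difference was below 0 in 34 of 39 (44.7% of all genes), and 6 genes had a difference of -1 or lower (0.415% of all genes). Both shKLHL23 arrays lay below both shLuc arrays in 31 genes (23.5% of all genes) and above them in 1, TGFA (29.4% of all genes). The median over the 39 genes was -0.46, beside 0.02 over all genes. With all 100 probe sets of these genes tested, FOS passed on its single probe set (adjusted p = 0.0447). A further 5 genes passed on 1 dimmer probe set each, and not on their brightest. These were 1 of 3 for DUSP1 (-1.53), EGR1 (-1.14) and SPRED1 (-1.23), and 1 of 6 for MCL1 (-1.38) and PHLDA1 (-1.01). All were lower in shKLHL23.

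The 6 genes at or beyond -1 were EGR1, FOS, DUSP1, IER3, EREG and KLF4. EGR1 had 8.81 and 6.88 in shKLHL23 arrays, against 9.45 and 9.42 in shLuc arrays (log2 difference -1.59, SE 0.477, adjusted p = 0.135). FOS had 4.23 and 3.38 in shKLHL23 arrays, against 5.11 and 4.97 in shLuc arrays (-1.24, SE 0.233, adjusted p = 0.0605). The FOS probe set was dim, with Hep-3B shKLHL23 values below the array medians of 4.563 to 4.597, and a filter on dim genes removed it. In both genes the controls were close together and replicate 3 of the knockdown lay far below replicate 1. DUSP1 had 9.83 and 8.87 in shKLHL23 arrays, against 10.56 and 10.54 in shLuc arrays (-1.20, adjusted p = 0.0746). IER3 had 11.50 and 10.61 in shKLHL23 arrays, against 12.17 and 12.18 in shLuc arrays (-1.12, adjusted p = 0.0728). The gap between knockdown replicates was again much wider than that between controls. EREG had 8.01 and 6.70 in shKLHL23 arrays, against 8.49 and 8.41 in shLuc arrays (-1.10, adjusted p = 0.135). KLF4 had 6.01 and 5.14 in shKLHL23 arrays, against 6.58 and 6.64 in shLuc arrays (-1.03, adjusted p = 0.0746). No array of either group crossed into the other in any of the 6 genes.

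Further down the same order in Hep-3B came CCN1, a matricellular protein that serum and YAP induce, with 8.99 and 8.14 in shKLHL23 arrays, against 9.53 and 9.53 in shLuc arrays (-0.96, adjusted p = 0.124). JUNB had 6.67 and 6.01 in shKLHL23 arrays, against 7.29 and 7.17 in shLuc arrays (-0.89, adjusted p = 0.0815). KLF10 had 9.23 and 8.32 in shKLHL23 arrays, against 9.53 and 9.69 in shLuc arrays (-0.84, adjusted p = 0.134). The remaining genes ran from -0.74 for IER2 to 0.10 for TGFA, whose arrays were 8.48 and 8.53 in shKLHL23 and 8.45 and 8.36 in shLuc.

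**Figure D2:**
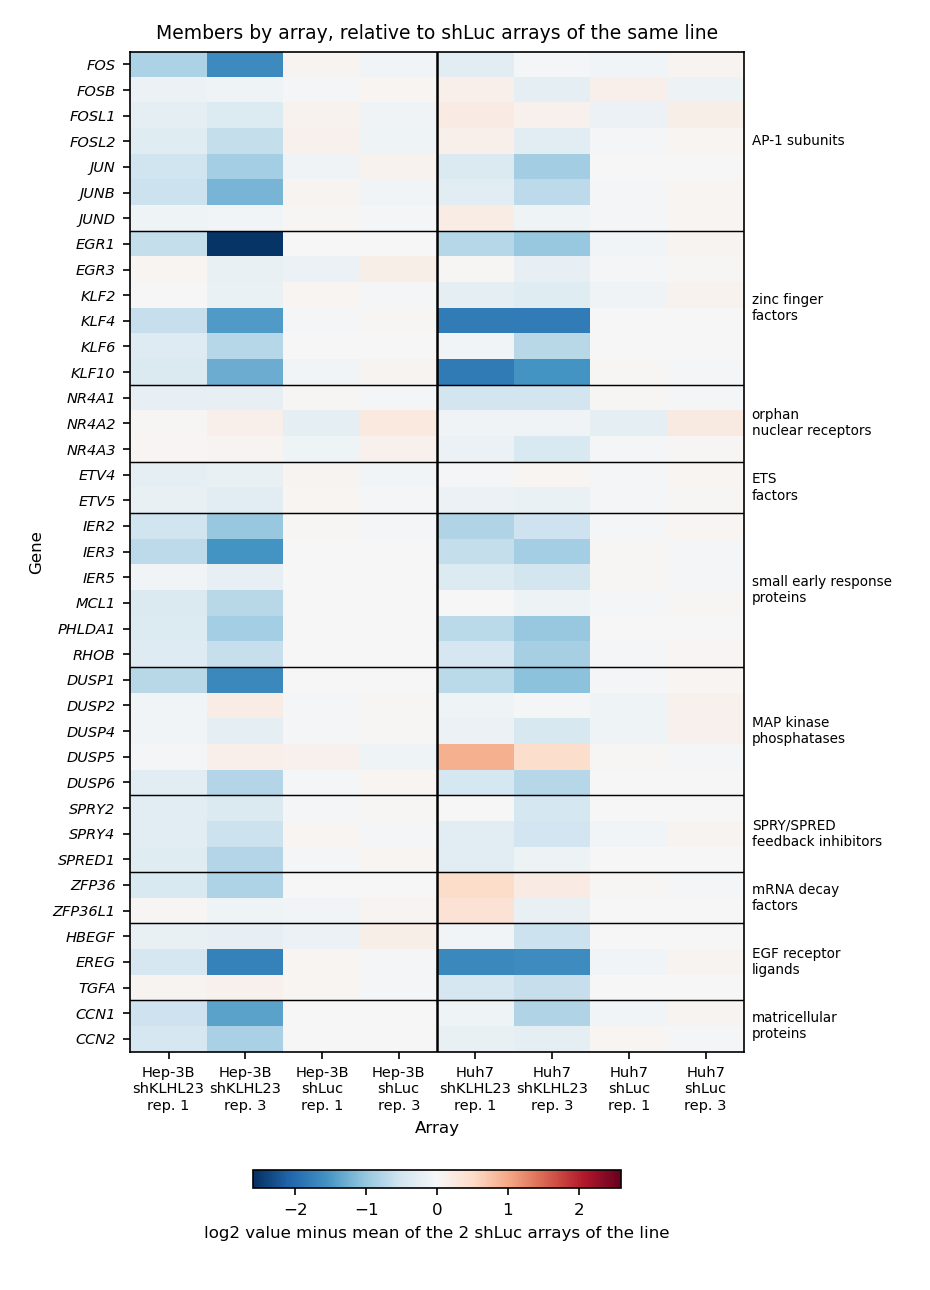
Heatmap of the 39 genes (rows, grouped by role) on the 8 arrays (columns), coloured by the log2 value minus the mean of the 2 shLuc arrays of the same line (blue lower, red higher). Blue fills most knockdown cells of both lines, darkest for EGR1 in Hep-3B shKLHL23 replicate 3, and DUSP5 and ZFP36 stand out in red in Huh7 shKLHL23.

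The Hep-3B knockdown replicates differed from each other in step with these genes. Relative to the control mean, the median of the 39 genes was -0.30 in replicate 1 and -0.59 in replicate 3, while the median of all genes was 0.02 in both. Replicate 3 lay below replicate 1 in 31 of 39 genes (48.1% of all genes), against 20 of 39 between the Hep-3B shLuc replicates. Over the 39 genes the replicates' difference had an SD of 0.445 in Hep-3B shKLHL23, against 0.151 in Hep-3B shLuc, and 0.222 against 0.157 over all genes. Replicate 3 also had the lower KLHL23 value in Hep-3B. Whether the depth of knockdown has a part in this was not tested, since each group has 2 arrays. Without Hep-3B shKLHL23 replicate 1 EGR1 differed by -2.55 in this line, and without replicate 3 by -0.62. More members and more genes in all were called without replicate 1, and fewer genes in all without replicate 3. Other settings also called members, 10 of them with array weights.

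In Huh7 the median of the 39 genes relative to the control mean was -0.19 in shKLHL23 replicate 1 and -0.46 in replicate 3, beside 0.01 and -0.01 over all genes. Replicate 3 was below replicate 1 in 29 of 39 genes (54.1% of all genes), against 13 of 39 between the shLuc replicates. KLHL23 itself had 5.78 and 5.88 in the Huh7 shKLHL23 arrays, and any part of the depth of knockdown was not tested here either. KLF4, EREG and NR4A1 were as low in replicate 1 as in replicate 3, and KLF10 and IER2 were lower in replicate 1. The wider gaps belonged to CCN1 (9.07 and 8.39 in shKLHL23, against 9.11 and 9.24 in shLuc arrays) and KLF6 (10.46 and 9.80 in shKLHL23, against 10.52 and 10.52 in shLuc arrays).

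**Figure D3:**
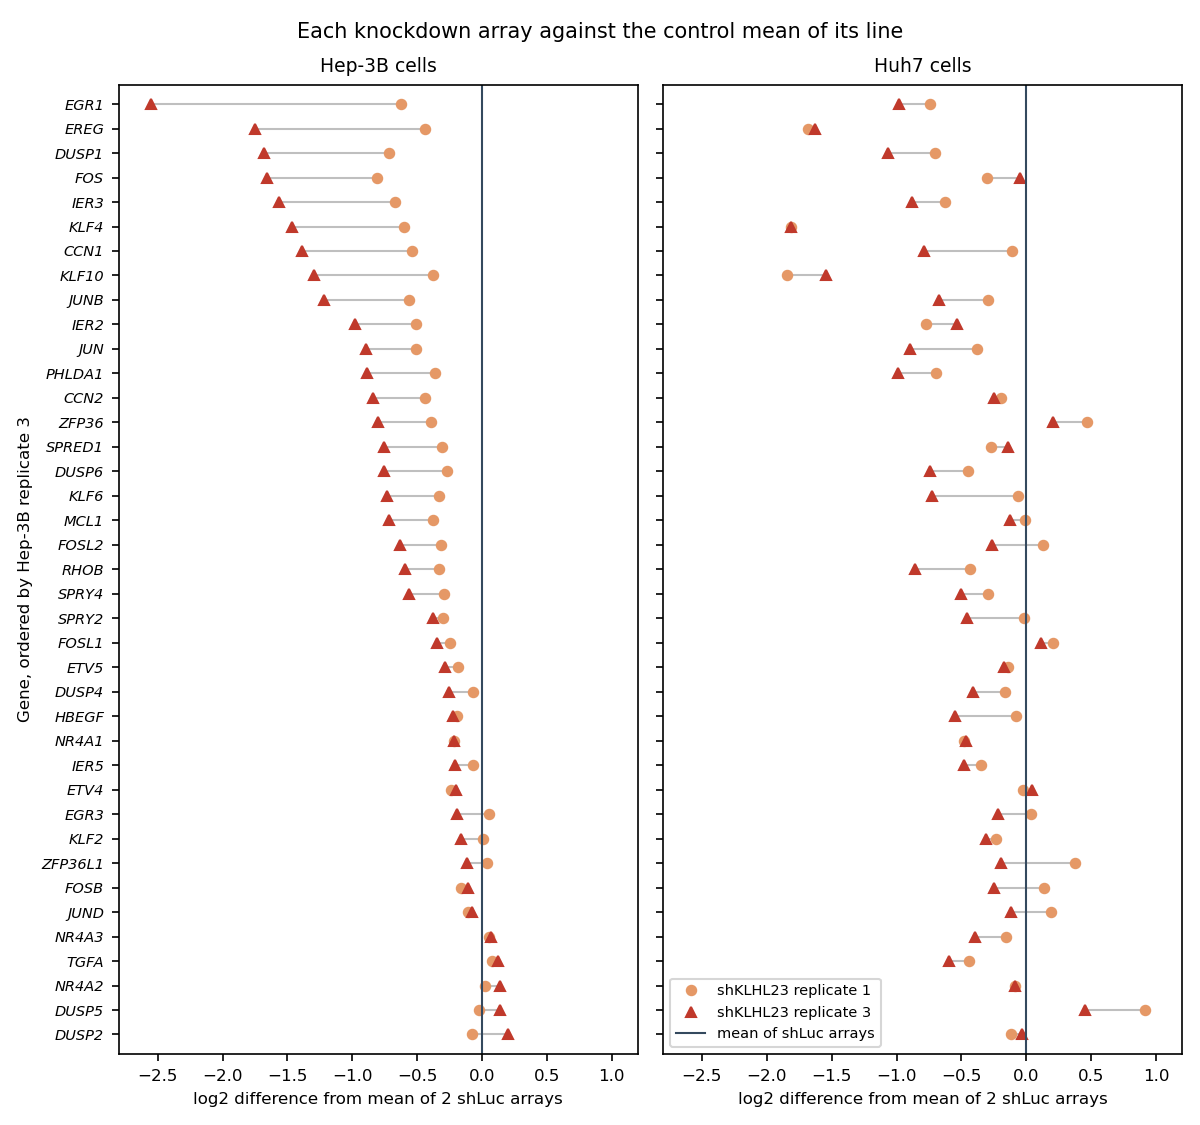
Log2 difference of each shKLHL23 array (replicate 1, circle; replicate 3, triangle) from the mean of the 2 shLuc arrays of its line, for 39 genes ordered by Hep-3B replicate 3. In Hep-3B the triangles lie left of the circles for most genes, with medians of -0.59 and -0.30, and in Huh7 KLF4 and EREG show nearly equal replicates.

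Over both lines, with the mean of the Hep-3B and Huh7 differences tested in the same limma fit, 20 of the 39 genes fell and none rose, where 8.02% of all genes fell and 7.6% rose. All 6 small early response proteins were among them, with IER3 at -0.94 (SE 0.168, adjusted p = 0.00942), IER2 at -0.70 (SE 0.11, adjusted p = 0.00606) and MCL1 at -0.31 (SE 0.0856, adjusted p = 0.0432). So were 3 of 7 AP-1 subunits (FOS, JUN and JUNB, at -0.70, -0.67 and -0.69) and 3 of 6 zinc finger factors (EGR1, KLF4 and KLF10, at -1.22, -1.42 and -1.27). Of the phosphatases DUSP1 (-1.04, SE 0.186, adjusted p = 0.00928) and DUSP6 (-0.56) fell, of the SPRY and SPRED inhibitors SPRY4 and SPRED1 fell (-0.41 and -0.37), and both matricellular proteins fell (CCN1 -0.71, CCN2 -0.43). EREG (-1.38) and NR4A1 (-0.34) completed the 20. Fewer members and fewer genes in all were called when any 1 shLuc array was left out. Without probe sets whose names end in _s_at or _x_at, 31 of the 39 genes were still measured and 12 fell. EGR1, KLF4, KLF10, IER3, DUSP1 and SPRY4 had no other probe set, while JUN and NR4A1 were measured and did not pass.

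In 23 of the 39 genes both shKLHL23 arrays lay below both shLuc arrays in each line, beside 11.7% of all genes, and in none did they lie above in each line (12.4% of all genes). ZFP36, which brings AU-rich mRNAs to decay, was the single gene with arrays lower in Hep-3B and higher in Huh7 (3.24% of all genes), and TGFA the single gene with the opposite pattern (5.07% of all genes). The test of the line difference (Huh7 minus Hep-3B, each knockdown minus control) called none of the 39 genes (limma, adjusted p under 0.05), where 1.26% of all genes were called, and 9 had an unadjusted p under 0.05 (14.7% of all genes). For KLF4 and KLF10 it gave -0.78 (SE 0.318, adjusted p = 0.304) and -0.86 (SE 0.353, adjusted p = 0.306), and for FOS it gave 1.06 (SE 0.329, adjusted p = 0.178). A call in Huh7 and none in Hep-3B is therefore not a shown difference between the lines for any of these genes. Without Hep-3B shKLHL23 replicate 1 the line difference was 1.49 for FOS, 1.69 for EGR1, -0.35 for KLF4 and 0.10 for EREG. Without replicate 3 it was 0.64, -0.24, -1.21 and -1.21 for the same genes.

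**Figure D4:**
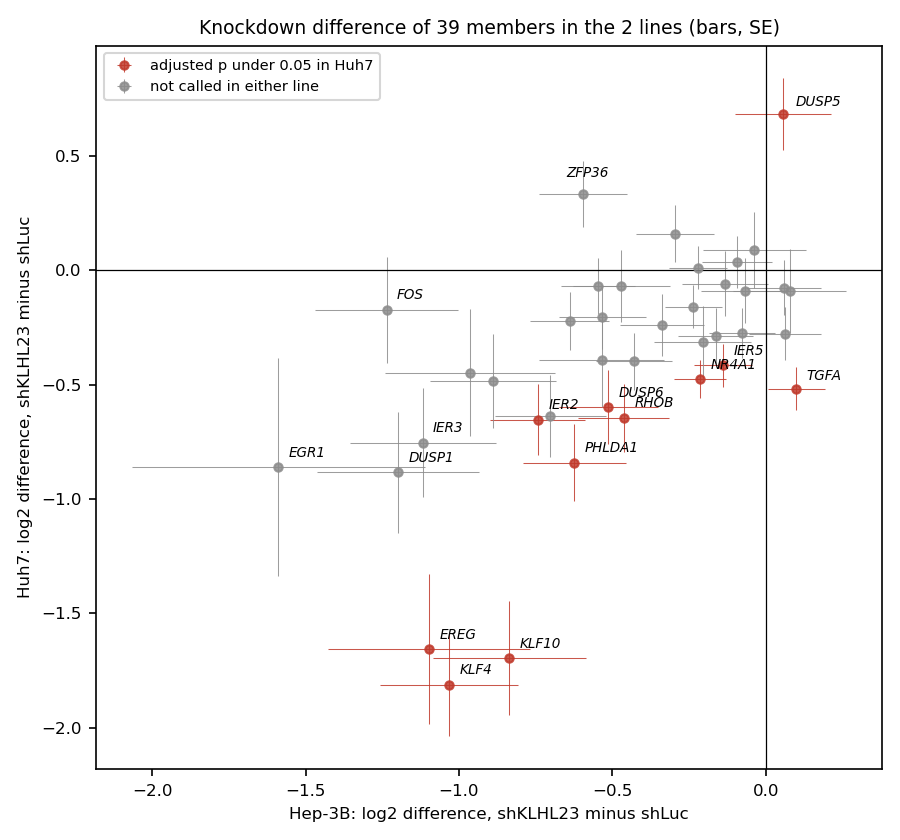
Knockdown difference (shKLHL23 minus shLuc, log2) of the 39 genes in Hep-3B (horizontal) and Huh7 (vertical), with bars of 1 SE; red points passed the test in Huh7 and grey points in neither line. Most points lie at the lower left, below 0 in both lines, with KLF4, KLF10 and EREG lowest in Huh7 and EGR1 and FOS farthest left in Hep-3B. DUSP5, ZFP36 and TGFA are among the points outside it.

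The lines already differed in these genes without knockdown. Between the control groups 19 of the 39 genes differed, 13 lower and 6 higher in Huh7 shLuc than in Hep-3B shLuc, where 14.9% of all genes were lower and 17.7% higher. EREG had 5.37 and 5.51 in Huh7 shLuc, against 8.49 and 8.41 in Hep-3B shLuc arrays (log2 difference -3.01, 8.06-fold lower, limma adjusted p = 0.000152). FOSL1, a FOS relative whose protein ERK stabilises, had 5.44 and 5.77 in Huh7 shLuc, against 8.11 and 7.93 in Hep-3B shLuc arrays (5.33-fold lower). DUSP5 had 5.21 and 5.15 in Huh7 shLuc, against 7.62 and 7.39 in Hep-3B shLuc arrays (4.99-fold lower). These 3 genes and DUSP6 (-1.06) and IER3 (-1.43) had the lowest differences. KLF4 had the opposite order, with 8.94 and 8.92 in Huh7 shLuc, against 6.58 and 6.64 in Hep-3B shLuc arrays (4.98-fold higher, adjusted p = 7.77e-05), and SPRY2 was next (adjusted p = 0.000533). After knockdown KLF4 in Huh7 (7.11 and 7.12) still lay above both Hep-3B shLuc arrays. These values share the control arrays with the knockdown differences above.

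**Figure D5:**
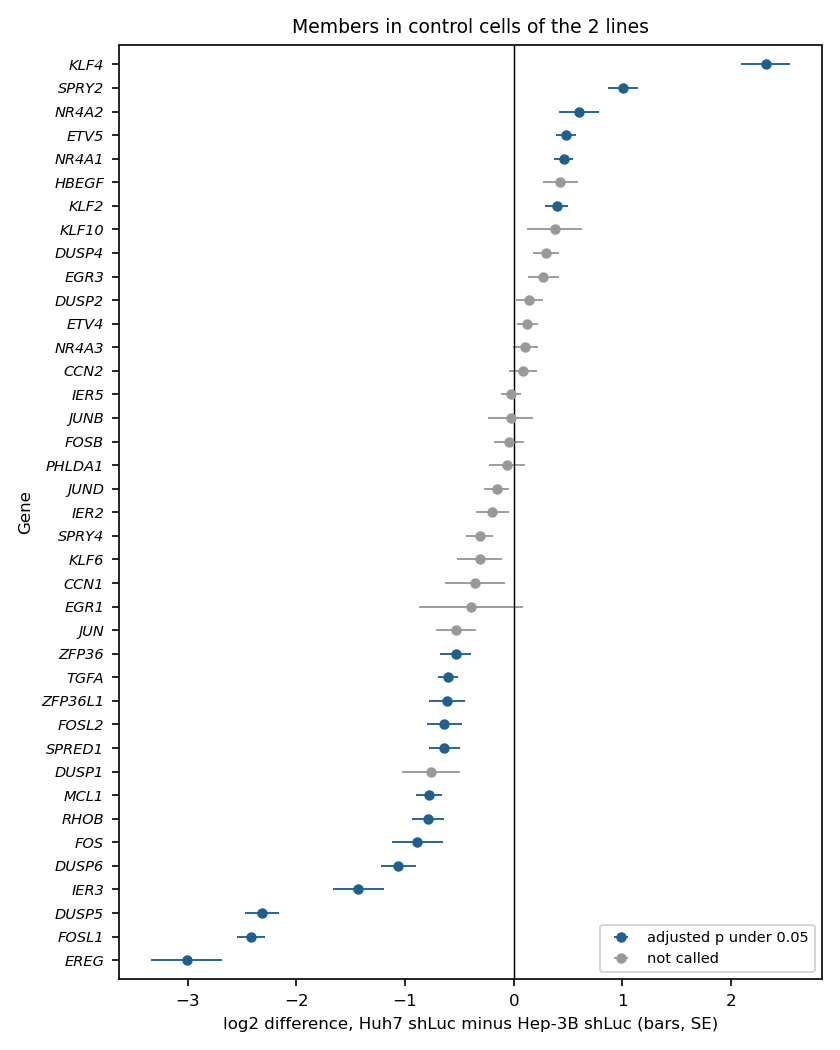
Log2 difference between the lines in control cells (Huh7 shLuc minus Hep-3B shLuc) for the 39 genes, with bars of 1 SE; blue points passed the test and grey points did not. KLF4 at 2.32 is the highest, and EREG, FOSL1 and DUSP5 lie below -2.

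The path from the receptors to the nucleus was read from 4 lists of 62 genes, of which 54 were measured. In Huh7 7 of the 54 fell and 4 rose, beside 7.73% and 5.75% of all genes, with a median difference of -0.02. In Hep-3B none passed, and 12 had an unadjusted p under 0.05, beside 17.7% of all genes, with a median of -0.02. Of 14 receptors, EGFR, which binds EREG and TGFA, rose in Huh7, with 8.96 and 8.20 in shKLHL23 arrays, against 7.64 and 7.61 in shLuc arrays (0.95, SE 0.214, limma adjusted p = 0.0224). Of 10 adaptors and exchange factors none passed in Huh7, with IRS1 at -0.33 and SOS1 at -0.21. Of 11 genes of the RAS to ERK core RRAS (0.79) and HRAS (0.38) rose and the ERK-activating kinase MAP2K1 (-0.40) fell in Huh7. In Hep-3B the same lists had FGFR3 at 0.24 and ERBB3 at -0.27, IRS1 and SHC1 at -0.28 and 0.28, and MKNK1 and MAP2K1 at 0.43 and -0.37, none past the test.

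Of 19 nuclear factors 6 fell and 1 rose in Huh7, where the shares over all genes were 7.73% and 5.75%. YAP1, a co-activator of CCN1 and CCN2, had 9.48 and 9.70 in shKLHL23 arrays, against 10.61 and 10.55 in shLuc arrays (-0.99, SE 0.101, limma adjusted p = 0.00159). Its DNA-binding partner TEAD4 (-0.83) and the CREB-binding protein CREBBP (-0.60) also fell, as did SRF, its co-activator MRTFA, and CREB1, while WWTR1, the relative of YAP1, rose. In Hep-3B none of the 19 passed, with ETS2 at -0.59 and CREB1 at -0.45 the largest. Of 24 further early and delayed response genes 7 fell and none rose in Huh7, beside the same shares, with a median of -0.26. ATF3, a stress-induced factor, had 6.62 and 7.07 in shKLHL23 arrays, against 9.07 and 9.14 in shLuc arrays (-2.25, adjusted p = 0.0319). MAFF (-0.99) and SPRY1 (-0.97) came next, and SRF (also among the nuclear factors), MYC, GADD45B and TRIB1 completed the 7. In Hep-3B none of the 24 passed, with 13 at an unadjusted p under 0.05 (17.7% of all genes) and a median of -0.27, and ATF3 had 8.09 and 5.84 in shKLHL23 arrays, against 9.05 and 9.07 in shLuc arrays (-2.09, adjusted p = 0.107). PPP1R15A was at -1.20 there (adjusted p = 0.0509).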

How the data were processed

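Hep-3B and Huh7 cells with shKLHL23 or shLuc were measured on 8 arrays, 2 per group. Per the submitters' processing notes, the authors made the deposited log2 expression values with RMA in Affymetrix Expression Console 1.2. RMA gives all arrays the same distribution, so a change in total RNA per cell is not seen, and it shrinks differences of dim probe sets. Array medians were 4.563 to 4.597. Further settings are not given in the sources used here.

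The platform annotation paired 41097 of 54675 probe sets with 1 gene symbol, 1801 with several and 11777 with none, and each gene kept its probe set of highest mean. With limma 3.58.1 in R 4.3.3, means of 4 groups were fitted (lmFit, eBayes; residual degrees of freedom 4, prior 4.59). Contrasts were shKLHL23 minus shLuc in each line, their mean, the line difference (that of Huh7 minus that of Hep-3B), and Huh7 shLuc minus Hep-3B shLuc. Benjamini-Hochberg adjustment ran over all 19775 genes, with 0.05 as the threshold, and each SE is the moderated one. The number of arrays limits the precision. The fit was tested on simulated data. Promoters are RefSeq's (GRCh38.p14).

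The members, lists, tests and naming rule were chosen with earlier results of these data known. Named are members called in either line or in the line difference, members with a difference of at least 1 (log2), the 4 largest control differences, and up to 3 called genes, or else 2, of each other list; other members are given by value within their role. CCN1, JUNB, KLF6 and the further called nuclear factors and early genes were named after their values were seen. The 18 alternatives were second normalizations, a dim gene filter, other uses of probe sets, lines fitted alone, trend and robust eBayes, array weights, the replicate block and leaving out each array.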

Additional observations from a re-analysis of the deposited data

Results flagged for a closer look

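The arrays of ZFP36, an mRNA decay factor, moved in opposite directions in the lines. They were 7.86 and 7.60 in Huh7 shKLHL23 against 7.42 and 7.37 in Huh7 shLuc, and 7.54 and 7.13 in Hep-3B shKLHL23 against 7.94 and 7.92 in Hep-3B shLuc. The difference between lines (Huh7 minus Hep-3B) was 0.93 (SE 0.204) and did not pass the test (limma adjusted p = 0.0752).

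TGFA showed the reverse pattern, with 7.36 and 7.21 in Huh7 shKLHL23 against 7.81 and 7.8 in Huh7 shLuc, and 8.48 and 8.53 in Hep-3B shKLHL23 against 8.45 and 8.36 in Hep-3B shLuc. Its difference between lines was -0.62 (SE 0.132, adjusted p = 0.0723), which also did not pass.

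Among the other lists, 1 of 19 nuclear factors and 1 of 4 bile duct cell markers passed the test of the difference between lines. No gene of the remaining lists, of 5 to 24 measured genes each, passed it, where 1.26% of all genes were called. YAP1 gave -0.82 (SE 0.142, limma adjusted p = 0.0408), with 10.14 and 10.07 in Hep-3B shKLHL23 against 10.26 and 10.29 in Hep-3B shLuc. KRT19, a keratin of bile duct cells, gave 1.14 (SE 0.214, adjusted p = 0.0476), with 9.67 and 9.26 in Huh7 shKLHL23 against 8.02 and 8.26 in Huh7 shLuc. Arrays moved in opposite directions without passing for the hepatocyte marker FGB (1.47, adjusted p = 0.0774). The receptors FGFR3 (-0.54, adjusted p = 0.104) and INSR (0.21, adjusted p = 0.47) did likewise. So did the endothelial markers PECAM1 (0.62, adjusted p = 0.179) and KDR (0.35, adjusted p = 0.362), and KDR lay below the lower quartile of all 8 arrays.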

How the results depend on the processing

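Of 39 members none was called in Hep-3B, but 1 (FOS) was without probe sets prone to cross-hybridisation, 1 (FOS) with all probe sets, 8 with an intensity trend and robust eBayes, 10 with array weights and 7 with the replicate block. Leaving out 1 array at a time gave 0 to 16. In Huh7 the 11 calls became 6 when each gene's probe sets were averaged and 2 to 15 with 1 array left out. The 20 calls of the mean of both lines became 12 among the 31 members measured without _s_at and _x_at probe sets. With 1 array left out the members' median ran from -0.37 to -0.26, and most such fits called fewer members. For the difference between lines there were 1 call (TGFA) with a filter on dim genes, 2 (ZFP36 and TGFA) with the intensity trend and robust eBayes, and 0 to 3 with 1 array left out. The 19 calls between controls became 13 to 21 with 1 array left out, 13 without probe sets prone to cross-hybridisation and 24 with array weights. KLF4 and KLF10 were called in Huh7 in all 17 alternatives that measured them. Without _s_at and _x_at probe sets another probe set stood for NR4A1, which then gave 0.063 in Huh7 and 0.072 over both lines, neither past the test. Deviations of same-numbered arrays correlated at -0.07 in Hep-3B and 0.06 in Huh7. With 2 arrays per group, this cannot show whether same-numbered arrays share a culture or day. With the replicate block the Huh7 count was 14 and the difference between lines stayed at 0. Causes of these shifts were not tested beyond the change of arrays or probe sets itself. With 2 arrays per group, a gene that did not pass may still differ.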

Other observations

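Markers of liver and other cell types were read in the same arrays. TTR, a hepatocyte secretory protein, rose in both lines, with 8.97 and 9.29 in Huh7 shKLHL23 against 7.78 and 8.02 in Huh7 shLuc (1.23, limma adjusted p = 0.00524), and with 10.30 and 10.83 in Hep-3B shKLHL23 against 9.01 and 8.96 in Hep-3B shLuc (1.58, adjusted p = 0.0148). It was the single called gene of 9 measured hepatocyte markers in each line. Of 4 markers of bile duct cells KRT19 (1.32) and EPCAM (0.36) rose and SOX9 (-0.56) fell in Huh7, and none passed in Hep-3B. None of 8 stellate cell and fibroblast, 5 endothelial and 5 blood and macrophage markers passed in either line (limma; at an unadjusted p under 0.05, 1 of each list in Huh7, and 0, 1 and 1 in Hep-3B).

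Of 5 measured EGF family ligands outside the member list none passed in either line, and none had an unadjusted p under 0.05. The largest differences were 0.17 for EGF and 0.15 for NRG1 in Huh7, and 0.27 for NRG2 and 0.18 for NRG4 in Hep-3B.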
